A study of Macaca mulatta with 449 samples.

Results

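Dopamine neurons are recognised by the genes that make, store and retrieve dopamine and by the transcription factors that keep them as dopamine neurons. Tyrosine hydroxylase (TH) catalyses the rate-limiting step from tyrosine to L-DOPA, aromatic L-amino acid decarboxylase (DDC) turns L-DOPA into dopamine, the vesicular monoamine transporter (SLC18A2) loads dopamine into vesicles, and the dopamine transporter (SLC6A3) takes it back up after release. In the primate brain these cells lie mainly in the substantia nigra and the ventral tegmental area, with smaller groups in the hypothalamus and in the olfactory bulb, where they are local interneurons. DDC and SLC18A2 also serve serotonin neurons, SLC18A2 serves histamine neurons, and TH, DDC and SLC18A2 serve noradrenaline neurons, so a high level of these genes alone does not name a cell type.

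The genes described here are 10 named genes of dopamine neurons: TH and DDC (synthesis), SLC6A3 and SLC18A2 (transport and storage), NR4A2, PITX3 and FOXA2 (transcription factors), and ALDH1A1, SLC10A4 and NTSR1 (a retinoic acid and aldehyde enzyme, a vesicular protein of monoamine and cholinergic neurons and a neurotensin receptor). They were chosen by symbol, with earlier results of these data known. Of the 10 genes, 9 had a row in the count table of 30807 genes. No value is given for PITX3.

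The rhesus macaque is a non-human primate used as a model of the human brain, and the study asked how its gene expression differs between finely dissected brain regions. The libraries analysed here were made from RNA depleted of ribosomal RNA from 51 sub-regions of the brains of 8 animals. The animals were 4 males and 4 females, and of each sex 2 were young (3.2 to 5 years) and 2 mid-aged (9.8 to 10 years). They are numbered 2, 3, 4, 6, 7, 8, 10 and 11 as in the labels, and each gave a single library of every sub-region. The 4 sub-regions compared were the substantia nigra (SN), the ventral tegmental area (VTA), the hypothalamus (HTHA) and the olfactory bulb (OB), with 8 libraries each, of which SN and VTA were sampled only at their centre. The cortex as used here was 31 other sub-regions, and the remaining 16 were set beside it, among them the entorhinal and perirhinal cortex (PA).

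The libraries held 7784678 to 31083490 counts. Levels are given as CPM, read counts scaled to the library size after edgeR's TMM normalisation, and no level is compared between genes because CPM does not correct for gene length. In these pieces of tissue, fewer dopamine neurons and less RNA per neuron cannot be told apart.

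HTHA and OB carried their defining markers, whereas no marker outside the dopamine pathway was used to place SN or VTA. The 4 hypothalamic peptide genes of the list that had a row (of 7) summed to 508 to 2904 CPM in HTHA and to at most 3.37 CPM in SN, VTA and OB. SP8 and SP9, the 2 of 6 listed genes of olfactory bulb neurons that had a row, summed to 136 to 207 CPM in OB and to at most 8.49 CPM in the other 3. The HTHA library of animal 6 stood apart, with 473 CPM of SLC17A7, a gene of cortical excitatory neurons, against 0.950 to 5.09 CPM of SLC17A7 in the other HTHA libraries. Other libraries also differed in such genes. The HTHA library of animal 3 had the highest sum of 5 oligodendrocyte genes (34462 CPM, HTHA median 9454 CPM). In SN, animal 4 had the highest sum of 4 genes of cortical excitatory neurons (107 CPM, SN median 8.97 CPM). Genes of serotonin neurons were present in several VTA libraries. TPH2, which makes serotonin, was at 0, 0, 0.267, 24.1, 61.4, 2.11, 21.3 and 96.0 CPM in the VTA of animals 2, 3, 4, 6, 7, 8, 10 and 11, and the serotonin transporter SLC6A4 reached 238 CPM in animal 11. In SN, TPH2 did not pass 0.523 CPM in any library. The 2 of 3 listed serotonin genes that had a row summed to 0 to 334 CPM in VTA and to 0.107 to 1.304 CPM in SN. The VTA libraries of animals 7 and 11 carried the most TPH2 and SLC6A4, and the comparisons among the 4 sub-regions that use VTA are therefore also given without them. VTA against cortex and the age and sex tests in VTA were not refitted without them. The VTA libraries that were kept still held serotonin genes, with SLC6A4 at 105 CPM in animal 6 and 51.3 CPM in animal 10.

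SN had the highest mean level of 8 of the 9 genes, and the exception was FOXA2, whose mean was highest in VTA by less than the spread between animals. SN alone made up 95.0% of the sum of the 51 sub-region means for SLC6A3, 83.8% for TH, 79.6% for SLC18A2 and 74.6% for DDC. The share was lower for NTSR1 (47.4%), SLC10A4 (35.96%), ALDH1A1 (25.8%) and NR4A2 (10.6%). The synthesis and transport genes were thus concentrated in SN, while NR4A2, ALDH1A1 and SLC10A4 had a mean of 1 CPM or more in every sub-region. The mean level was under 1 CPM in 44 of 51 sub-regions for TH, 43 for DDC and for SLC18A2, 48 for SLC6A3 and 49 for FOXA2. Outside SN and VTA, FOXA2 had 7 counts in 49 sub-regions and was at 0 in all libraries of 43 of them. FOXA2 is a forkhead factor that specifies and maintains midbrain dopamine neurons.

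**Figure D1:**
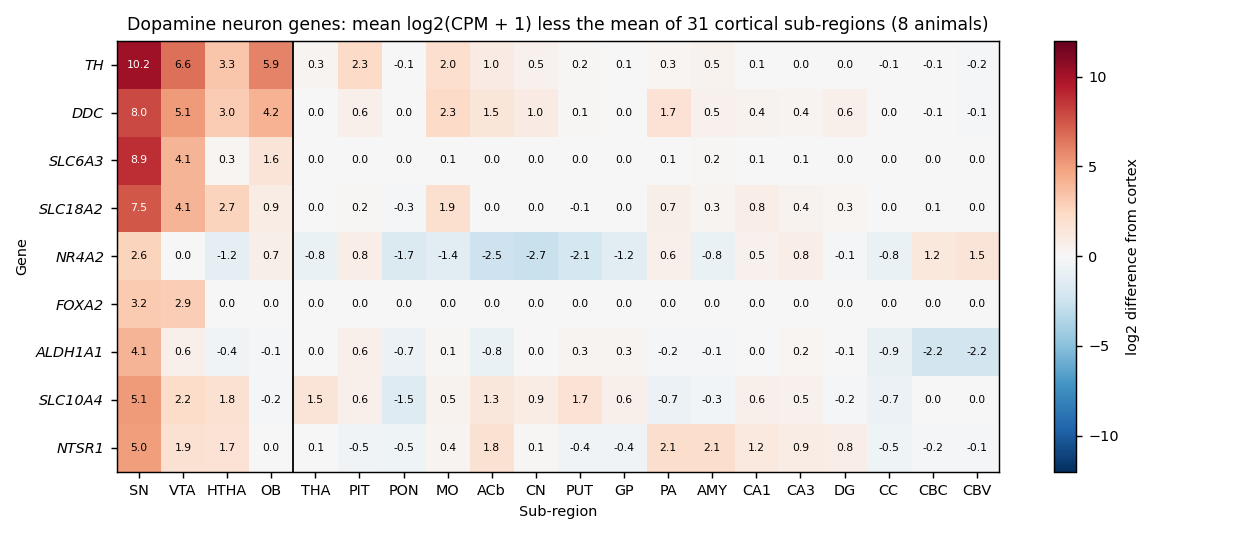
Mean log2(CPM + 1) of 9 dopamine neuron genes (rows) in 20 sub-regions not counted as cortex (columns), less the mean of the 31 cortical sub-regions in each of the 8 animals. Red is higher and blue is lower than cortex, and the number in each cell is the difference. SN is the reddest column for TH, DDC, SLC6A3 and SLC18A2, FOXA2 is coloured only in SN and VTA, and NR4A2 and ALDH1A1 also have blue cells, ALDH1A1 in CBC and CBV.

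In SN, TH was at 784 CPM in the lowest animal, 1446 CPM in the median and 1892 CPM in the highest. In VTA, TH ranged from 14.9 to 336 CPM with a median of 142 CPM. The groups did not overlap, and the VTA values spread 22.6-fold between animals where the SN values spread 2.41-fold. The mean of TH was 8.52-fold higher in SN, with a log2 fold change (log2FC) of 3.40 ± 0.38 (SE, n = 8 animals) and an adjusted p of 2.17e-07 by edgeR's quasi-likelihood test with Benjamini-Hochberg adjustment. DDC was at 164 to 424 CPM in SN (median 292 CPM) and at 5.58 to 79.9 CPM in VTA (median 47.7 CPM). As for TH, every SN library was above every VTA library, and DDC had a log2FC of 2.71 ± 0.32 between SN and VTA (SE, n = 8, edgeR adjusted p = 5.86e-07).

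The dopamine transporter SLC6A3 had the widest gap between SN and VTA among the 9 genes. SLC6A3 was at 277 to 880 CPM in SN (median 464 CPM) and at 4.44 to 59.4 CPM in VTA (median 16.95 CPM), with no overlap and a log2FC of 4.56 ± 0.45 (SE, n = 8, edgeR adjusted p = 2.57e-08). SLC18A2 was at 116 to 505 CPM in SN (median 317 CPM) and at 3.95 to 63.1 CPM in VTA (median 27.4 CPM). The highest VTA library of SLC18A2 stayed below the lowest SN library, and the log2FC was 3.38 ± 0.36 (SE, n = 8, edgeR adjusted p = 7.74e-08).

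The transcription factors differed from each other. NR4A2, an orphan nuclear receptor needed for the dopamine phenotype, was at 92.5 to 149 CPM in SN (median 120.2 CPM) and at 7.15 to 30.2 CPM in VTA (median 18.5 CPM), with a log2FC of 2.68 ± 0.23 (SE, n = 8, edgeR adjusted p = 2.83e-09) and no overlap. FOXA2 was at 5.22 to 12.2 CPM in SN and at 0.181 to 17.5 CPM in VTA. The FOXA2 values overlapped, 4 of 8 animals were higher in SN, and the log2FC of 0.27 ± 0.40 did not pass the test (SE, n = 8, edgeR adjusted p = 0.661). Without the VTA libraries of animals 7 and 11, which held the lowest FOXA2, its log2FC was -0.45 ± 0.25 (edgeR adjusted p = 0.231).

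ALDH1A1, SLC10A4 and NTSR1 were also higher in SN than in VTA in all 8 animals without overlap. The share of all genes without overlap between SN and VTA was not counted. ALDH1A1, which oxidises retinaldehyde and dopamine-derived aldehyde, was at 3260 to 5756 CPM in SN and 166 to 580 CPM in VTA, with a log2FC of 3.46 ± 0.17 (SE, n = 8, edgeR adjusted p = 8.55e-14). SLC10A4 was at 227 to 482 CPM in SN and 20.9 to 101 CPM in VTA, with a log2FC of 2.79 ± 0.26 (edgeR adjusted p = 1.41e-08). The neurotensin receptor NTSR1 was at 32.5 to 66.6 CPM in SN and 0.349 to 11.3 CPM in VTA, with a log2FC of 3.30 ± 0.32 (edgeR adjusted p = 1.90e-08). In all, 8 of the 9 genes passed an adjusted p under 0.05 and an absolute log2FC above 1 between SN and VTA, all higher in SN, where 2.65% of the 15454 genes tested were called higher in SN, 2.83% lower and 5.49% in either direction. Without the VTA libraries of animals 7 and 11, 8 genes were again called, and the log2FC was 3.00 for TH and 3.97 for SLC6A3.

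**Figure D2:**
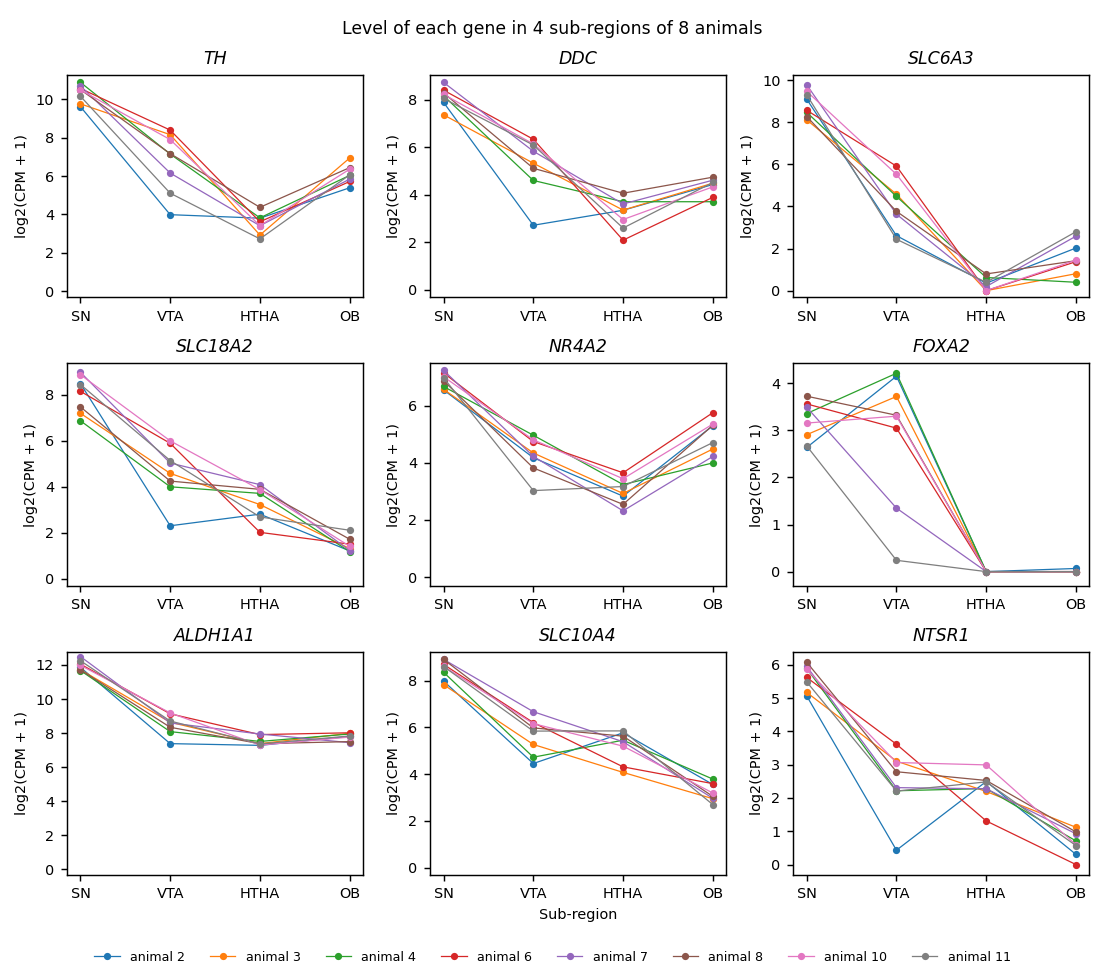
Level of each of 9 dopamine neuron genes, log2(CPM + 1), in SN, VTA, HTHA and OB, with a coloured line for each of the 8 animals. All lines fall from SN to VTA except those of FOXA2, the VTA points spread most for TH and FOXA2, and TH, DDC, SLC6A3 and NR4A2 are higher in OB than in HTHA for nearly all animals.

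In log2(CPM + 1) less the cortical mean, every gene but NR4A2 spread most between animals in VTA among the 4 sub-regions. The SD in VTA was largest for TH (1.55) and FOXA2 (1.40). For NR4A2 the SD was 0.69 in VTA and 0.78 in OB. In animal 2, the VTA library held the lowest TH (14.9 CPM), DDC (5.58 CPM), SLC18A2 (3.95 CPM), ALDH1A1 (166 CPM), SLC10A4 (20.9 CPM) and NTSR1 (0.349 CPM) of the 8, while FOXA2 was at 16.7 CPM, the second highest. Animals 7 and 11 showed another combination in VTA. Their FOXA2 was at 1.55 and 0.181 CPM, their TH at 70.5 and 33.5 CPM and their SLC6A3 at 11.4 and 4.44 CPM, whereas their DDC was at 56.1 and 67.4 CPM and their SLC18A2 at 31.8 and 34.4 CPM, both above the VTA medians of those genes. These are the libraries with 61.4 and 96.0 CPM of TPH2. Animal 6 had the highest VTA level of TH (336 CPM), DDC (79.9 CPM), SLC6A3 (59.4 CPM) and NTSR1 (11.3 CPM). The part of serotonin neurons in the VTA levels of DDC and SLC18A2 was not tested.

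Oligodendrocyte genes also differed between SN and VTA. The summed level of 5 oligodendrocyte genes (of 6 in the list) was 15922 to 33509 CPM in SN and 41166 to 64538 CPM in VTA, without overlap, and the summed level of 5 neuron genes was 4579 to 8001 CPM in SN and 3481 to 6136 CPM in VTA. Their part in the lower VTA levels of the dopamine genes was not tested.

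**Figure D3:**
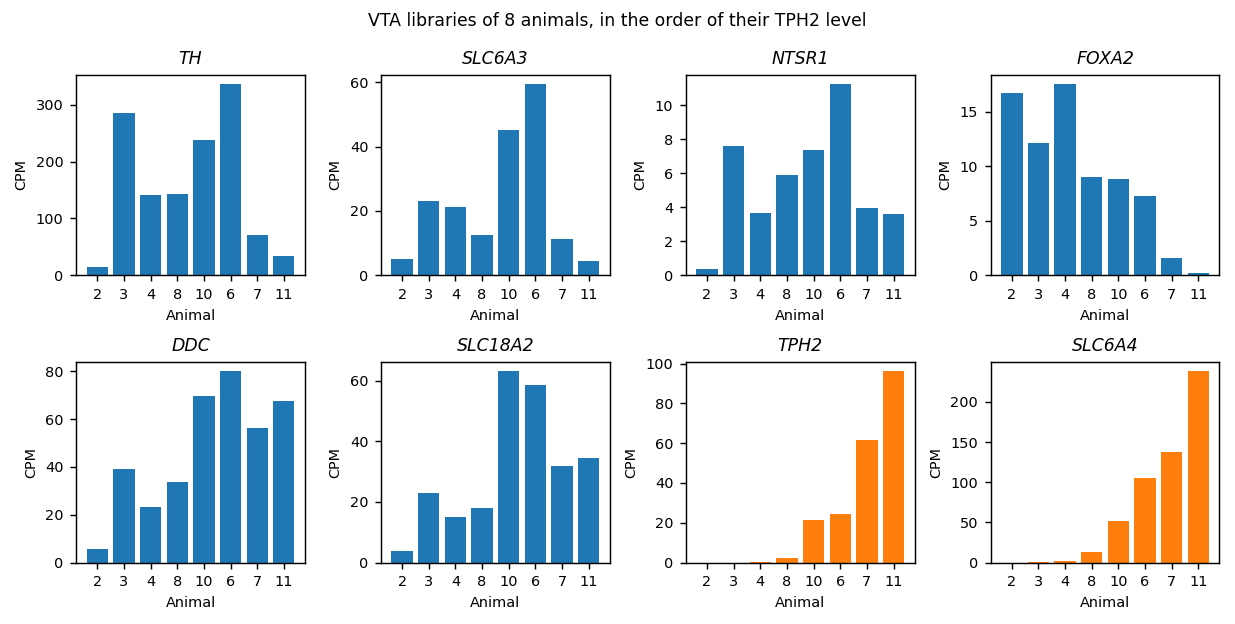
CPM of 6 dopamine neuron genes (blue) and of the serotonin neuron genes TPH2 and SLC6A4 (orange) in the VTA library of each of 8 animals, ordered from the lowest to the highest TPH2, each panel starting at 0. FOXA2 is lowest in animals 11 and 7, which have the most TPH2 and SLC6A4, while DDC and SLC18A2 are lowest in animal 2.

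Other genes of the dopamine pathway split between SN and VTA. Of 5 genes of tetrahydrobiopterin synthesis and recycling, the cofactor of TH, only GCH1 was called. It catalyses the first step of cofactor synthesis and was at 11.1 to 26.9 CPM in SN and 3.72 to 13.04 CPM in VTA (log2FC 1.48 ± 0.19, edgeR adjusted p = 1.62e-06). The median log2FC of the 5 genes was 0.50, against 0.014 over all genes tested between SN and VTA. Their summed level went the other way, with a mean of 1096 CPM in SN (789 to 1342 CPM) and 1608 CPM in VTA (1265 to 2388 CPM). Neither of the 2 monoamine oxidases was called between SN and VTA (log2FC 0.14 for MAOA and 0.27 for MAOB). Of 8 measured receptors and signalling genes of dopamine neurons, 5 were higher in SN and 0 lower, with a median log2FC of 2.06. The dopamine receptor DRD2, which is also the autoreceptor of these neurons, differed most (log2FC 3.62 ± 0.36, edgeR adjusted p = 3.43e-08), followed by the potassium channel KCNJ6 (log2FC 2.81 ± 0.22, edgeR adjusted p = 3.61e-10).

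Of 4 further transcription factors, LMX1B (log2FC 2.71 ± 0.35, edgeR adjusted p = 1.78e-06) and SOX6 were higher in SN, and OTX2 was lower (log2FC -1.49 ± 0.30, edgeR adjusted p = 5.82e-04). SOX6 is known from nigral and OTX2 from ventral tegmental dopamine neurons. Of 6 measured genes known from ventral tegmental dopamine neurons, the vesicular glutamate transporter SLC17A6 was lower in SN (log2FC -4.03 ± 0.41, edgeR adjusted p = 3.65e-08) and the neuropeptide gene CCK was higher (log2FC 1.28 ± 0.42, edgeR adjusted p = 0.0241). The other 4 (CALB1, NEUROD6, LPL and GRP) were not called. Without the VTA libraries of animals 7 and 11, CCK lost its call (log2FC 1.12 ± 0.49, edgeR adjusted p = 0.102), while GCH1, DRD2, KCNJ6, LMX1B, SOX6, OTX2 and SLC17A6 were called in the same direction.

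The hypothalamus contains several small dopamine cell groups, and the comparison with SN put all 9 genes higher in SN, where 3.75% of the genes tested were called higher in SN and 10.6% in either direction. TH was at 5.62 to 19.7 CPM in HTHA (median 10.5 CPM), and its mean was 121-fold lower than in SN (log2FC 6.95 ± 0.45 for SN against HTHA, SE, n = 8, edgeR adjusted p = 3.13e-12). DDC was at 3.26 to 15.8 CPM in HTHA (log2FC 5.00 ± 0.36, edgeR adjusted p = 3.03e-11) and SLC18A2 at 3.06 to 16.1 CPM (log2FC 4.86 ± 0.38, edgeR adjusted p = 1.37e-10). SLC6A3 was nearly absent from HTHA, with 26 counts in the 8 libraries and 0 in 3 of them, a mean of 0.252 CPM. FOXA2 was at 0 in all 8 HTHA libraries, so that with a floor of 3 counts per library its level was at least 32.8-fold higher in SN and at least 35.7-fold higher in VTA. All 9 genes were again called between SN and HTHA without the HTHA library of animal 6.

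VTA and HTHA were closer. Of the 9 genes, 7 were called higher in VTA, where 4.74% of the genes tested were called higher in VTA and 11.3% in either direction. The log2FC of VTA against HTHA was 3.56 ± 0.40 for TH, 2.29 ± 0.34 for DDC and 6.24 ± 0.67 for SLC6A3. It was 1.48 ± 0.36 for SLC18A2, 1.40 ± 0.24 for NR4A2 and 1.04 ± 0.16 for ALDH1A1 (SE, n = 8, edgeR adjusted p at most 0.00137 for these 6). ALDH1A1 lost its call without animal 10 (log2FC 0.90) or 11 (log2FC 0.99). SLC10A4 was at 20.9 to 101 CPM in VTA and 15.8 to 56.8 CPM in HTHA, and NTSR1 at 0.349 to 11.3 CPM in VTA and 1.48 to 6.97 CPM in HTHA. Both overlapped between the sub-regions and neither passed the test (log2FC 0.48 ± 0.26 and 0.29 ± 0.33, edgeR adjusted p = 0.131 and 0.505). Without the VTA libraries of animals 7 and 11, or without the HTHA library of animal 6, 7 genes were again called.

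In the olfactory bulb, dopamine is made by interneurons around the glomeruli. TH was at 40.96 to 122 CPM in OB with a median of 65.3 CPM. All OB libraries lay below every SN library and above every HTHA library. SN was higher than OB in all 9 genes, where 11.2% of the genes tested were called higher in SN and 23.6% in either direction. The log2FC of SN against OB was 4.28 ± 0.39 for TH and 3.85 ± 0.34 for DDC, and 7.61 ± 0.52 for SLC6A3 and 7.32 ± 0.45 for SLC18A2 (SE, n = 8, edgeR adjusted p at most 3.20e-10 for these 4). It was 1.99 ± 0.22 for NR4A2, 4.18 ± 0.18 for ALDH1A1, 5.38 ± 0.30 for SLC10A4 and 6.42 ± 0.40 for NTSR1 (edgeR adjusted p at most 1.44e-08). FOXA2 had 1 count in the 8 OB libraries.

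TH did not reach the fold threshold between VTA and OB. Its mean was 158 CPM in VTA and 71.1 CPM in OB, 6 of 8 animals were higher in VTA, and the log2FC was 0.88 ± 0.36 (SE, n = 8, edgeR adjusted p = 0.0313). Leaving out the VTA libraries of animals 7 and 11 gave a log2FC of 1.24 for TH, past the threshold, as did leaving out animal 2 (log2FC 1.06) or animal 11 (log2FC 1.13). NR4A2 (log2FC -0.69 ± 0.23, edgeR adjusted p = 0.00945) and ALDH1A1 (log2FC 0.72 ± 0.16, edgeR adjusted p = 2.97e-04) were also under the fold threshold. The other 6 genes were called higher in VTA, where 10.3% of the genes tested were called higher in VTA and 23.3% in either direction. The log2FC was 1.14 ± 0.32 for DDC (edgeR adjusted p = 0.00285, log2FC 0.91 and not called without animal 6), 3.05 ± 0.49 for SLC6A3, 3.94 ± 0.42 for SLC18A2, 2.59 ± 0.28 for SLC10A4 and 3.12 ± 0.42 for NTSR1. Without the VTA libraries of animals 7 and 11 these genes were again called, with a log2FC of 1.01 for DDC, 3.73 for SLC6A3, 4.00 for SLC18A2, 2.47 for SLC10A4 and 3.31 for NTSR1.

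HTHA and OB differed in both directions. TH (log2FC -2.67 ± 0.38), DDC (-1.14 ± 0.33), SLC6A3 (-3.19 ± 0.79) and NR4A2 (-2.09 ± 0.24) were lower in HTHA than in OB (SE, n = 8, edgeR adjusted p at most 0.00456). SLC18A2 (log2FC 2.45 ± 0.43), SLC10A4 (2.11 ± 0.28) and NTSR1 (2.83 ± 0.42) were higher in HTHA (edgeR adjusted p at most 2.17e-05). ALDH1A1 was not called (log2FC -0.32 ± 0.16, edgeR adjusted p = 0.0832), and FOXA2 was at the floor in both. Of all genes tested, 17.1% were called in either direction, 8.33% higher and 8.76% lower in HTHA. TH, NR4A2, SLC10A4 and NTSR1 did not overlap between HTHA and OB, while DDC, SLC6A3 and SLC18A2 did. The share of all genes without overlap between HTHA and OB was not counted. Without the HTHA library of animal 6, DDC had a log2FC of -0.99 and was no longer called. The histamine gene HDC, whose neurons use SLC18A2, was at 1.28 to 96.7 CPM in HTHA and at most 0.374 CPM in OB, and its part in the SLC18A2 level was not tested.

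**Figure D4:**
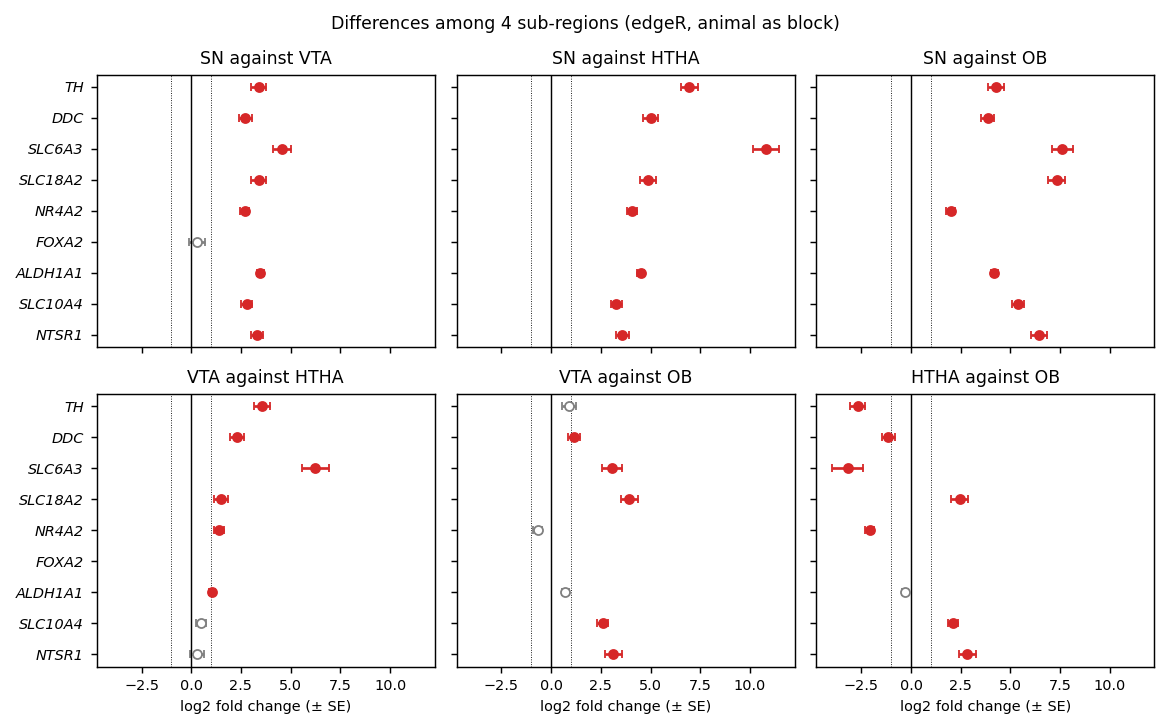
log2 fold change (horizontal axis, point ± SE, n = 8 animals) of the dopamine neuron genes (rows) in the 6 comparisons among SN, VTA, HTHA and OB. Filled red points were called at an adjusted p under 0.05 and an absolute log2FC above 1 (dotted lines), open grey points were not, and FOXA2 is drawn only for SN against VTA; all filled points lie to the right of 0 except TH, DDC, SLC6A3 and NR4A2 in HTHA against OB.

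The change of other genes from SN was set beside that of TH as a description, with no test, because the 6 genes used were picked for a level above 100 CPM in SN after the levels were seen, which left out NTSR1 and FOXA2. Relative to TH, SLC6A3 was lower by 1.19 ± 0.61 in VTA (log2 of CPM + 1, mean ± SD, n = 8, lower in all 8 animals), by 1.77 ± 0.71 in HTHA and by 3.04 ± 0.79 in OB. The size for SLC6A3 depends on the pseudocount where SLC6A3 is low. With a pseudocount of 0.1, SLC6A3 relative to TH was at -1.27 in VTA, -3.88 in HTHA and -3.68 in OB, so that the order of HTHA and OB turned. Without animals 7 and 11, SLC6A3 relative to TH was at -1.01 ± 0.61 in VTA (n = 6).

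SLC18A2 relative to TH was at 2.05 ± 1.18 in HTHA and -2.36 ± 0.87 in OB (SD, n = 8, higher in 8 of 8 animals and lower in 8 of 8). DDC was at 1.90 ± 0.70 in HTHA and 0.44 ± 0.27 in OB relative to TH, above 0 in 8 and 7 of the 8 animals. NR4A2 was above TH in its change in HTHA (2.96 ± 0.75) and OB (2.25 ± 0.82), SLC10A4 in HTHA (3.54 ± 0.69) and ALDH1A1 in HTHA (2.37 ± 0.57), each in 8 of 8 animals. In OB, SLC10A4 was at -1.03 ± 0.87 relative to TH, below 0 in 7 of 8 animals.

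Between animals, TH was compared with the other 8 genes in SN and in VTA by exact permutation of the pairing, 16 relations in all. In SN, TH rose with NTSR1 over the 8 animals (Pearson's r = 0.906, exact p = 0.00389, adjusted p = 0.0208, Spearman's rho = 0.786, exact p = 0.0279, adjusted p = 0.147). Without animals 2 and 3, which were farthest from the median TH level, r was 0.592, so the relation in SN rested on those animals. Both are mid-aged males. In SN the mid-aged and young means were 1078 and 1613 CPM for TH and 39.9 and 60.8 CPM for NTSR1. The permutation ignored age, so this relation cannot be told apart from the age difference. No relation of TH with SLC6A3 was detected in SN (r = 0.119, exact p = 0.765, rho = 0.119, exact p = 0.793).

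In VTA, TH rose with NTSR1 (r = 0.919, exact p = 2.23e-04, adjusted p = 0.00357, rho = 0.976, exact p = 3.97e-04, adjusted p = 0.00635, n = 8) and with SLC6A3 (r = 0.908, exact p = 0.00196, adjusted p = 0.0157, rho = 0.929, exact p = 0.00223, adjusted p = 0.0179). Without animals 2 and 11, r was 0.873 for NTSR1 and 0.830 for SLC6A3. Without animals 7 and 11, r was 0.982 for NTSR1 (n = 6, unadjusted exact p = 0.00139) and 0.884 for SLC6A3 (unadjusted exact p = 0.0139). FOXA2 did not follow TH in VTA (r = 0.287, exact p = 0.507, exact p = 1.00 for rho). No other relation passed an exact adjusted p of 0.05. The relation with NTSR1 in SN also lost its call without animal 3 (r = 0.873, exact adjusted p = 0.0942) or 11 (r = 0.904, exact adjusted p = 0.0730). Without animal 2, none of the 16 relations passed, with r of 0.846 for NTSR1 and 0.919 for SLC6A3 in VTA (exact adjusted p = 0.0857 and 0.0635), and without animal 4, 6 passed.

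**Figure D5:**
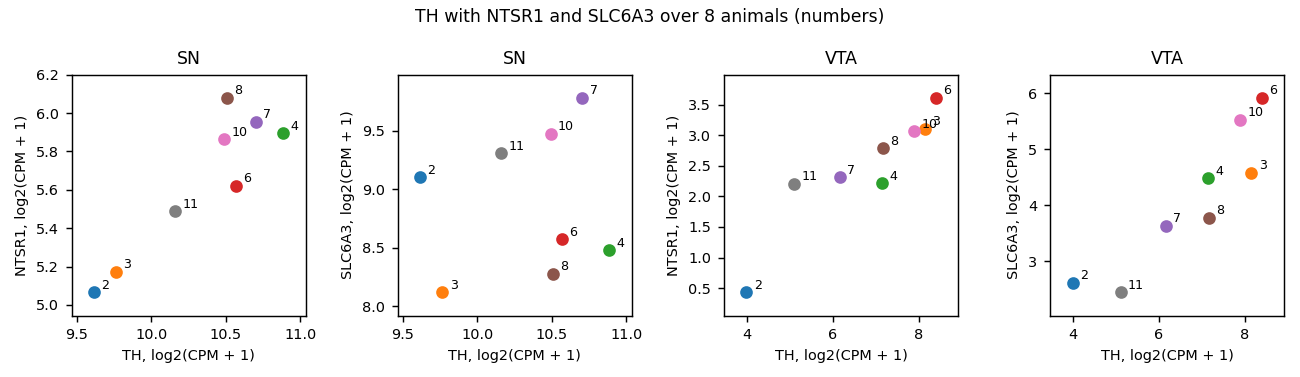
TH (horizontal axis) against NTSR1 or SLC6A3 (vertical axis), log2(CPM + 1), in SN (left pair) and VTA (right pair), with a numbered point for each of 8 animals. Both genes rise with TH in VTA, where animal 2 is lowest in TH, and in SN NTSR1 rises with TH while SLC6A3 does not.

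Beyond the 4 sub-regions, each gene was compared between the 31 sub-regions taken as cortex and the other 20, which include PA, itself a cortical area by its label. These 20 comparisons share the cortical samples, whose counts were summed within each animal, and 16906 genes were tested. Between 5.23% and 21.3% of all genes were called higher than cortex, depending on the sub-region. In SN all 9 genes were called higher than cortex (14.1% of all genes called higher), in VTA 7 (14.2%), in HTHA 6 (10.9%) and in OB 4 (12.5%). OB was higher than cortex in TH (log2FC 8.83 ± 0.40), DDC (7.09 ± 0.36), SLC6A3 (6.71 ± 0.38) and SLC18A2 (1.73 ± 0.33), with an edgeR adjusted p of at most 1.96e-06. In VTA, NR4A2 (SE of the log2FC 0.34, edgeR adjusted p = 0.998) and ALDH1A1 (log2FC 0.64 ± 0.13, edgeR adjusted p = 1.23e-05) were the genes not called against cortex.

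Among the other sub-regions with a call of these genes, the share of all genes called higher was 8.78% in the nucleus accumbens (ACb), 9.62% in the caudate nucleus (CN), 8.45% in the putamen (PUT) and 16.6% in the globus pallidus (GP). It was 5.23% in the amygdala (AMY), 5.48% in PA, 6.22% in CA1, 6.20% in CA3 and 6.68% in the dentate gyrus (DG) of the hippocampus. In the thalamus (THA) it was 9.79%, in the cerebellar cortex (CBC) 10.3%, in the cerebellar vermis (CBV) 11.1%, in the pons (PON) 11.5%, in the medulla oblongata (MO) 15.4%, in the corpus callosum (CC) 20% and in the pituitary (PIT) 21.3%. The share called lower, in the sub-regions where a dopamine neuron gene was called lower, was 8.03% in ACb, 8.43% in CN, 10.5% in PUT and 18.2% in GP. It was 7.67% in HTHA, 13% in MO, 13.5% in PON, 14.5% in CBC, 15.9% in CBV, 23.4% in PIT and 24.3% in CC.

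TH was called higher than cortex in 9 of 20 sub-regions and lower in 0, and DDC was called higher in 13 and lower in 0. For TH these were SN, VTA, HTHA, OB, PIT, MO, ACb, CN and AMY. In the 31 cortical sub-regions the mean of TH ran from 0.0210 to 0.515 CPM. TH was at 0.2504 to 3.505 CPM in ACb and at 0 to 1.81 CPM in CN, 2 striatal targets of dopamine axons (log2FC against cortex 3.13 ± 0.48 and 2.18 ± 0.57, edgeR adjusted p = 1.12e-08 and 6.91e-04). In PUT, TH was not called (log2FC 0.72 ± 0.84, edgeR adjusted p = 0.485). SLC6A3 was higher than cortex in 5 sub-regions (SN, VTA, OB, HTHA and AMY), and in AMY it had 13 counts in 8 libraries. SLC18A2 was called higher in 7, among them MO, where noradrenaline and serotonin neurons lie.

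In MO, TH was at 0.0809 to 12.5 CPM, DDC at 0.863 to 35.2 CPM and SLC18A2 at 1.09 to 18.8 CPM. Other monoamine genes also ranged widely in MO. The noradrenaline enzyme DBH was at 0.405 to 15.1 CPM in MO and TPH2 at 0.273 to 45.7 CPM, and animal 8 had the highest DDC, SLC18A2, DBH and TPH2. The lowest TH, 1 count, was in the MO library of animal 6, which also had the lowest summed level of 5 neuron genes (259 CPM, median 4981 CPM) and the highest of 5 oligodendrocyte genes (90823 CPM, median 45898 CPM). In the other MO libraries TH was at 1.82 to 12.5 CPM. The part of noradrenaline and serotonin neurons, or of the low neuron gene level of animal 6, in the MO levels was not tested.

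NR4A2 was called lower than cortex in more sub-regions than it was called higher. It was called higher than cortex in SN, PIT and both cerebellar sub-regions and lower in 7, among them the striatum (CN log2FC -3.30 ± 0.42, edgeR adjusted p = 8.84e-12, ACb log2FC -2.53 ± 0.39, edgeR adjusted p = 1.21e-08, PUT log2FC -1.84 ± 0.38, edgeR adjusted p = 1.18e-05). NR4A2 had a mean of 58.3 CPM in CBV, 57.6 CPM in PIT and 53.8 CPM in CBC, but the PIT values ran from 11.3 to 204.6 CPM and the CBC values from 22.2 to 121.5 CPM. ALDH1A1 was called higher than cortex only in SN among the 20 (log2FC 4.05 ± 0.15, edgeR adjusted p = 7.16e-55). It was called lower in CBC (log2FC -2.19 ± 0.14, edgeR adjusted p = 2.07e-31) and CBV (log2FC -2.16 ± 0.14, edgeR adjusted p = 6.38e-31). In PIT (log2FC 0.71), VTA (0.64), PUT (0.32) and GP (0.31), ALDH1A1 was above cortex at an edgeR adjusted p under 0.05, short of the fold threshold.

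SLC10A4 was called higher than cortex in 6 sub-regions (SN, VTA, HTHA, THA, PUT and ACb) and lower in PON. NTSR1 was higher in 9 and lower in 5, and after SN its means were close together in AMY (5.76 CPM), PA (5.67 CPM), VTA (5.47 CPM), ACb (4.803 CPM) and HTHA (4.22 CPM). None of these neighbours differed beyond the spread between animals (exact adjusted p of at least 0.668 for each step).

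In the order of the 51 sub-regions, the first 6 of each gene were compared neighbour by neighbour with exact sign-flip tests over the 8 animals, 45 pairs, for which the smallest possible p was 0.00781 and the smallest adjusted p 0.0352. The step from the highest sub-region to the next passed for TH, DDC, SLC6A3, SLC18A2 and SLC10A4 (SN above VTA), ALDH1A1 (SN above PIT) and NTSR1 (SN above AMY), each in 8 of 8 animals. For NR4A2, SN above CBV did not pass (7 of 8 animals, exact adjusted p = 0.0541). OB above HTHA passed for TH and DDC, and VTA above OB did not (TH 6 of 8 animals, exact adjusted p = 0.396, DDC 7 of 8, exact adjusted p = 0.185). For FOXA2 the order of VTA and SN did not hold (exact adjusted p = 0.763), while SN above the next sub-region did. In all, 10 of the 45 steps passed. The pairs and their direction were picked from the same values that were tested, and the p-values take no account of that choice.

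Over the 51 sub-region means of log2(CPM + 1), TH was most like DDC among these genes (Pearson's r = 0.971) and least like NR4A2 (r = 0.290), and SLC6A3 was most like FOXA2 (r = 0.938). Such correlations describe sub-regions of the same animals and libraries. SLC6A3 and FOXA2 had means under 1 CPM in 48 and 49 of the 51 sub-regions, so their r rests on few sub-regions. The same limit holds for PAX5 below, which had a mean of 1.49 CPM in SN and 1.24 CPM in VTA. Among all other genes with a symbol and at least 1 CPM in the gene's highest sub-region, the 5 most like TH were DNAJC22 (r = 0.928), LMX1B (r = 0.841), PAX5 (r = 0.840), EBF3 (r = 0.824) and RTL1 (r = 0.804). DNAJC22 was at 4.45 ± 2.05 CPM in SN, 4.32 ± 2.76 CPM in VTA and 2.45 ± 0.78 CPM in OB (SD, n = 8) and at 0.241 CPM in HTHA. The most similar gene was DNAJC22 for DDC (r = 0.909), PAX5 for SLC6A3 (r = 0.937) and for FOXA2 (r = 0.981), LMX1B for SLC18A2 (r = 0.943) and KCNJ6 for NR4A2 (r = 0.773). It was INS for ALDH1A1 (r = 0.769), KRT36 for SLC10A4 (r = 0.807) and MPO for NTSR1 (r = 0.896).

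Age stage and sex were compared within each of the 4 sub-regions with 4 animals against 4, at an adjusted p under 0.1 and an absolute log2FC above 1. None of the 9 genes was called for age in 32 tests or for sex in 32 tests, and a further 4 tests of each were not made because SLC6A3 and FOXA2 in HTHA and FOXA2 and NTSR1 in OB had too few counts. Unadjusted p-values were under 0.05 in 4 of the 32 age tests and in 2 of the 32 sex tests by edgeR, and DESeq2 called 1 gene for age in HTHA and 0 elsewhere. For age in SN, DESeq2 called 54 of 14052 genes higher and 6 lower, where edgeR called 1 and 0 of 14619. In VTA, DESeq2 called 10 and 5 of 14028 genes for age, and edgeR 1 and 0 of 14594. The share that DESeq2 called in HTHA is not given here, so its call there cannot be weighed. Of all genes tested, the share with an unadjusted p under 0.05 by edgeR was 11.0% for age in SN, 1.87% in VTA, 1.79% in HTHA and 1.99% in OB, and 1.17% to 2.22% for sex. Of all genes tested, edgeR called 0.00684% for age in SN, 0.00685% in VTA and 0% in HTHA and OB, and it called 0.0958%, 0.103%, 0.0935% and 0.106% for sex in SN, VTA, HTHA and OB.

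The 4 age tests with an unadjusted p under 0.05 were those of NTSR1 and TH in SN and of SLC18A2 and DDC in HTHA, all with lower values in mid-aged animals. NTSR1 was at 32.5, 35.1, 48.3 and 43.9 CPM in the SN of the mid-aged animals 2, 3, 6 and 11 and at 58.5, 61.0, 66.6 and 57.2 CPM in the young animals 4, 7, 8 and 10. The age groups did not overlap, but with a log2FC of -0.62 ± 0.16 the difference did not pass (SE, n = 4 a group, edgeR adjusted p = 0.398). How many of all genes were without overlap between the ages was not counted, so a lack of overlap only describes the values. TH in SN had a log2FC of -0.62 ± 0.19 with overlap between the ages (edgeR adjusted p = 0.406). SLC18A2 in HTHA was at 6.03, 8.40, 3.06 and 5.46 CPM in the mid-aged animals 2, 3, 6 and 11 and at 12.1, 16.1, 13.9 and 13.7 CPM in the young animals 4, 7, 8 and 10. These did not overlap either, with a log2FC of -1.31 ± 0.27 (edgeR adjusted p = 1.00), and SLC18A2 is the gene that DESeq2 called (log2FC -1.29, adjusted p = 0.0129). Without animal 6, whose HTHA library stood apart, the mid-aged values of SLC18A2 were 5.46 to 8.40 CPM and still did not overlap. DDC in HTHA was at 3.26 to 9.24 CPM in the mid-aged and 6.78 to 15.8 CPM in the young animals, with overlap and a log2FC of -0.84 ± 0.29 (edgeR adjusted p = 1.00). HDC in the same libraries was at 14.5, 96.7, 1.28 and 9.26 CPM in the mid-aged animals 2, 3, 6 and 11. In the young animals 4, 7, 8 and 10 it was at 49.1, 39.1, 57.5 and 66.1 CPM. Only the HDC value of animal 3 made the age groups overlap, and the part of HDC neurons in the SLC18A2 values was not tested.

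For sex, NR4A2 in HTHA was at 5.39 ± 1.19 CPM in males and 9.46 ± 1.61 CPM in females (SD, n = 4 each) without overlap, a log2FC of 0.84 ± 0.24 that did not pass (edgeR adjusted p = 0.953). How many of all genes were without overlap between the sexes was not counted either. The highest female value, 11.6 CPM, was that of animal 6, whose HTHA library stood apart by its SLC17A7 level. NR4A2 had a mean of 19.4 CPM in cortex, and the part of cortical tissue in the animal 6 value was not tested. Without animal 6, NR4A2 was at 8.00 to 9.87 CPM in females and 3.99 to 6.60 CPM in males, still without overlap. DDC in HTHA was at 6.79 ± 3.80 CPM in females and 11.4 ± 3.09 CPM in males (SD, n = 4 each), with overlap and a log2FC of -0.81 ± 0.29 (edgeR adjusted p = 0.953). In VTA, the log2FC of females against males was 1.32 ± 0.65 for SLC6A3 and 1.20 ± 0.56 for SLC18A2, and neither passed (edgeR adjusted p = 1.00 for each). Without animal 6, the log2FC of SLC6A3 was 0.47, and without animal 2 that of SLC18A2 was 0.79.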

How the data were processed

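Ribosomal RNA-depleted RNA-seq of 51 sub-regions in each of 8 animals was analysed. Per their methods, the authors used Trim Galore 0.4.4 for trimming, HISAT2 2.0.5 for alignment to the Mmul 8.0.1 genome and HTSeq 0.6.1 for read counting on Ensembl genes. The deposited values are raw counts per gene. The strand setting is not given in the sources used here, so overlapping and antisense genes are uncertain. Library totals were 7784678 to 31083490 counts, and no pair of libraries was identical. Of 30807 gene identifiers, 17572 could be given a symbol. The genes, lists and tests were chosen with earlier results of these data known.

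Groups came from the labels. Tests used edgeR 4.0.16 in R 4.3.3 (TMM, filterByExpr, quasi-likelihood F test, Benjamini-Hochberg adjustment over all genes tested), with the animal as a block between sub-regions because the same number marks the same animal. The 4 sub-regions shared a fit, the 20 comparisons with cortex used counts summed over cortex within each animal, and age and sex were fitted together within a sub-region. The SE is the absolute log2FC divided by the square root of F. A gene was called at an adjusted p under 0.05 (0.1 for age and sex) and an absolute log2FC above 1. Single-gene tests used log2(CPM + 1) with numpy 2.4.6 and exact permutations. The change relative to TH was added after the data were seen. In the fit of all sub-regions, the dispersion trend was taken from every 20th gene and interpolated. The fits were tested on simulated data.

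All genes of the set with a row are described. From other lists, the 2 with the largest absolute log2FC past the threshold between SN and VTA are named with their values. Genes of similar pattern are the top 5 for TH and the top for each other gene. Other genes named with values were chosen after these were seen. Since PITX3 has no value, 16 relations with TH were tested. Alternatives were DESeq2 1.42.0, its size factors, other filters, a log2FC above 2, no block, no covariate, another pseudocount and each animal left out. The assembled transcripts, the ATAC-seq samples and the midbrain samples were not analysed here.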

Additional observations from a re-analysis of the deposited data

Results flagged for a closer look

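The levels of the 9 genes in SN, VTA, HTHA, OB, MO and PIT were screened for a library far from the other 7, by the gap to its nearest neighbour as a share of the whole range (critical value 0.526 for 8 libraries). Of 51 gene and sub-region pairs, 9 were picked out, and none of them was in SN, VTA or HTHA. Chance picks about 1 in 20 of independent, roughly normal groups, which these are not: 4 of the 9 are the same MO library, and both FOXA2 values are 1 count against 0 in the others.

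In MO, animal 8 was far above the others for DDC (35.2 CPM against at most 8.94 CPM), SLC18A2 (18.8 against at most 7.66 CPM) and SLC10A4 (58.2 against at most 22.2 CPM), and it had the only FOXA2 count of MO (0.0871 CPM). The same library had 45.7 CPM of TPH2 and 15.1 CPM of DBH, the highest of the 8 MO libraries. Also in MO, animal 4 was highest for SLC6A3 (0.363 CPM) and NTSR1 (3.36 against at most 1.47 CPM).

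In PIT, TH was at 25.6 CPM in animal 2 and at 1.69 to 8.20 CPM in the others. NTSR1 was at 0.416 CPM in the PIT of animal 11 and at most 0.177 CPM in the others. The single FOXA2 count of OB was in animal 2 (0.0472 CPM).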

How the results depend on the processing

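Over the alternatives, 229 of 234 counts stayed within 1.5 times, and 1047 of 1074 values of single genes kept their direction and call. The counts were of called genes, of steps in the order of sub-regions and of relations with TH. They include the age and sex counts, which were 0, and a count that stayed at 0 was taken as unchanged. With a log2FC above 2, 4 genes were called between VTA and HTHA in place of 7. Of the 15454 genes tested, 107 were then called higher and 206 lower in VTA. Without a filter on low counts, 2 genes were called for sex in VTA (SLC6A3 log2FC 1.31 and SLC18A2 log2FC 1.20). Of 22166 genes tested then, 41 were called higher and 29 lower in females, against 4 and 11 of 14594 with the filter. DESeq2, which called more of all genes for age than edgeR in SN and in VTA, called 1 gene for age in HTHA. Leaving out each animal gave 0 to 6 relations with TH in place of 3. Without the replicate block, the counts among the 4 sub-regions, and of these against cortex, were as with it except VTA against OB (7 in place of 6), and FOXA2 in SN against VTA reversed to a log2FC of -0.082. With each animal left out, FOXA2 in SN against VTA ran from a log2FC of -0.098 to 0.57, and NTSR1 in VTA against HTHA from -0.077 to 0.57. Without the VTA libraries of animals 7 and 11 (chosen after seeing the data), FOXA2 was at -0.45. NR4A2 in VTA against cortex was 0.041 with DESeq2, 0.036 with its size factors and 0.11 with the mean of cortical sub-regions in the fit of all libraries, and NTSR1 in OB against cortex was 0.42 in that fit. The causes were not tested. Depth limits SLC6A3 in HTHA and FOXA2 outside SN and VTA, which had few or 0 counts.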

Other observations

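INS, the insulin gene, is the protein-coding neighbour of TH in the RefSeq annotation of assembly T2T-MMU8v2.0, and, since the strand setting of the counting is not given in the sources used here, its counts are uncertain. It was the gene most like ALDH1A1 over the sub-regions. INS was at 1.32 ± 0.52 CPM in SN (SD, n = 8, 110 counts in all) and at 0.649 ± 0.46 CPM in VTA, 0.297 CPM in HTHA and 0.245 CPM in OB. The highest mean of INS outside SN and VTA was 0.414 CPM in CN.

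MPO, a peroxidase known from neutrophils and the gene most like NTSR1, was at 8.85 to 52.2 CPM in SN, 0.543 to 5.44 CPM in VTA, 1.68 to 4.55 CPM in HTHA and 0.168 to 0.953 CPM in OB. Its highest mean outside SN and VTA was 3.12 CPM in PIT. RTL1, a gene derived from a retrotransposon, was at 14.1 to 32.6 CPM in SN, 6.62 to 23.9 CPM in HTHA and 2.76 to 8.80 CPM in VTA, and at most 0.318 CPM in OB.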
